A study of Mus musculus with 24 samples.

Results

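The brain endothelium genes examined here are 10 genes of the cells that line brain vessels: Cldn5, Cdh5, Pecam1, Slc2a1, Slco1a4, Abcb1a, Flt1, Kdr, Tek and Ly6c1. Every probe set whose single gene symbol was one of them was taken, which gave 16 of the 45101 probe sets on the array, for 9 of the 10 genes. A probe set is the group of short probes on the array that reads one transcript region. The gene Ly6c1 has 0 such probe sets, because the 1 probe set that lists it also lists Ly6c2, and it is not analysed here. Flt1 has 4 probe sets, Slc2a1 has 3, Cdh5 and Abcb1a have 2 each, and the other 5 genes have 1 each. Of the 16, 15 passed a filter that left out the dimmest 40% of probe sets and were tested.

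Whole-brain total RNA of 4-month-old mice was hybridised to 24 Affymetrix arrays, 1 per sample, with 6 samples in each of 4 groups. The groups are named in the labels as wildtype (wt), aSYN only, Hsp70 only and aSYN/Hsp70, the last carrying both. The labels do not spell out aSYN, and Hsp70 is read here as the stress-inducible chaperone. Strain, promoter, transgene species and the number of founder lines are not given in the sources used here, nor is it said that the samples are separate animals, so p-values measure only the spread between these samples. Sex is not labelled. By Xist and Y-linked probe sets, 4 wt, 4 aSYN, 3 Hsp70 and 2 aSYN/Hsp70 samples were female.

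Brain endothelial cells form the blood-brain barrier. Claudin-5 (Cldn5) seals the tight junctions between them, VE-cadherin (Cdh5) forms the adherens junctions beneath, and PECAM-1 (Pecam1) is an adhesion molecule at the same contacts. Because little passes between the cells, nutrients and drugs must cross them, and this is done by carriers: GLUT1 (Slc2a1) brings in glucose, the organic anion transporter Slco1a4 moves steroid conjugates, thyroid hormones and other amphipathic compounds, and P-glycoprotein (Abcb1a) pumps drugs back to the blood. Vessel growth and stability are set by the VEGF receptors Kdr (VEGFR2) and Flt1 (VEGFR1, which also acts as a decoy) and by Tek (Tie2), the receptor of the angiopoietins.

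Promoters are shown for the members that differed between aSYN/Hsp70 and aSYN at an unadjusted p under 0.05 and that have a window in the RefSeq table of build GRCm38.p6 (8 of the 10 genes have one). Each is the 250 bases before the transcription start, 5′ to 3′ on the gene's strand. The first 3 genes averaged higher in aSYN/Hsp70 than in aSYN, the last 2 lower. Capitals mark AGGAAG or ACGTG on either strand. AGGAAG is a form of the site read by ETS factors such as ERG, and ACGTG a form of the core of hypoxia response elements. Shorter or variant forms were not searched.
Cldn5 (chr16:18776597-18776846, plus strand): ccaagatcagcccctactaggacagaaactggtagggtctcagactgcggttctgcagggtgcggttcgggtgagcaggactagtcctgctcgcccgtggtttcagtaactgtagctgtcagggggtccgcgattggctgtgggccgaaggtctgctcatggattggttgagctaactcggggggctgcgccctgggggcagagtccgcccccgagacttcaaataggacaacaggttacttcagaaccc
Kdr (chr5:75978456-75978705, minus strand): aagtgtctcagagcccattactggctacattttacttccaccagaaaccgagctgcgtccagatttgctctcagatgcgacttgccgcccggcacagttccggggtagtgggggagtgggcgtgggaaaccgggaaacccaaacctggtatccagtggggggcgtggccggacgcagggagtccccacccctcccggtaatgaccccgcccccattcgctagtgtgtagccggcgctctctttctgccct
Tek (chr4:94739039-94739288, plus strand): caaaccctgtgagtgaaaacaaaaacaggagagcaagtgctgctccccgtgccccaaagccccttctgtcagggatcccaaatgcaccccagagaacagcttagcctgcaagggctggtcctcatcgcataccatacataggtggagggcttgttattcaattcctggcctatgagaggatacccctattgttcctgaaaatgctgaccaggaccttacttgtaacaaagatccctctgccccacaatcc
Slc2a1 (chr4:119108495-119108744, plus strand): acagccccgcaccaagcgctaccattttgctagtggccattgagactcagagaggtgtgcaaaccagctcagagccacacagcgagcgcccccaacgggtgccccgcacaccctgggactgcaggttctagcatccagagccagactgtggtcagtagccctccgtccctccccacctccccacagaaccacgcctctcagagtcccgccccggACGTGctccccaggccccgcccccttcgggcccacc
Abcb1a (chr5:8566841-8567090, plus strand): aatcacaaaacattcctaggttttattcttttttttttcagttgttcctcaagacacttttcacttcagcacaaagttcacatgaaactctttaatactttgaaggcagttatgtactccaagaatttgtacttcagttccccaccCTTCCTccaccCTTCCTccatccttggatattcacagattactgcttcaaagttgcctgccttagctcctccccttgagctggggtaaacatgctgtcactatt
The windows of Cldn5, Kdr and Tek hold neither of these exact strings, which does not show that they lack other forms of these sites. That of Abcb1a holds AGGAAG 2 times, both read on the opposite strand as CTTCCT, and that of Slc2a1 holds ACGTG 1 time. Of the 32851 windows of this length in the table, 29.5% hold AGGAAG and 16.6% hold ACGTG on either strand. Counted per gene instead, among the 8 members with a window 4 hold the first in any window and 1 holds the second. These 4 include Ly6c1, which has no probe set of its own here and a match in only 1 of its 2 windows. Shares per window and per gene are unlike measures. A match is a run of letters and not a measured binding site.

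All levels below are log2(intensity + 16) after quantile normalisation, and a difference of 1 is a doubling. Array medians of the deposited intensity ran from 458 to 893. Each array correlated with the rest by a median Spearman value of 0.836 to 0.939. Those with limma weights under 0.5, 4 in all, stood apart: aSYN/Hsp70 replicates 4 and 3, and Hsp70 replicates 3 and 6. The 4 probe sets of the mouse genes Hspa1a and Hspa1b differed between Hsp70 and wt by -0.14 to 0.26 (limma adjusted p of at least 0.91), so they do not check the Hsp70 label. In whole-brain RNA, fewer endothelial cells and less RNA per endothelial cell cannot be told apart. Astrocyte (9 of 9) and microglia (10 of 10) marker genes passed the same filter.

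The junction gene Cldn5 was lowest in aSYN brains and higher in both groups that carried Hsp70. In wt samples the Cldn5 level ran from 12.44 to 13.25 with a median of 12.92, and in aSYN samples from 12.08 to 12.73 with a median of 12.53. It ran from 12.82 to 13.64 in Hsp70 samples (median 13.15) and from 12.70 to 13.62 in aSYN/Hsp70 samples (median 13.16). On the deposited linear scale the median for wt was 7837 intensity units and for aSYN 5927, against 9151 for Hsp70 and 9134 for aSYN/Hsp70. Of the 6 aSYN/Hsp70 samples, 5 lay above the highest aSYN sample, and only aSYN/Hsp70 replicate 6 fell inside the aSYN range. All 6 aSYN samples lay below the wt mean, while wt replicate 6, at 12.44, lay among them.

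Cldn5 rose by 0.71 from aSYN (12.46 ± 0.27, SD, n = 6) to aSYN/Hsp70 (13.17 ± 0.34, SD, n = 6), a fold of 1.64 (SE 0.17 log2, 95% interval 0.36 to 1.05, limma adjusted p = 0.046). Among the 15 tested member probe sets this was the only call (1 of 15), where 0.718% of all 27022 tested probe sets were called, 0.496% as higher. The members were chosen with earlier results of these data known, so these shares do not test the list. The order of the Cldn5 group means was aSYN, wt (12.91 ± 0.28), aSYN/Hsp70 and Hsp70 (13.19 ± 0.27, SD, n = 6), and no neighbours in that order passed, with limma adjusted p of 0.732, 0.439 and 0.98. Hsp70 exceeded aSYN by 0.73 (SE 0.17, limma adjusted p = 0.339), as large a difference that was not called, the adjustment being over all probe sets of that comparison. Female samples differed between aSYN/Hsp70 (n = 2) and aSYN (n = 4) by 0.737 and male samples (n = 4 and n = 2) by 0.699, with no test.

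The Cldn5 call was close to the threshold and 1 library could end it. Without aSYN replicate 2, 3, 4, 5 or 6 the difference was 0.63, 0.73, 0.76, 0.66 and 0.72, and the limma adjusted p was 0.126, 0.0896, 0.054, 0.0835 and 0.0804. Without aSYN/Hsp70 replicate 1, 2, 3, 4 or 5 it was 0.75, 0.74, 0.66, 0.62 and 0.68, with limma adjusted p of 0.0524, 0.062, 0.111, 0.106 and 0.0719. Leaving out Hsp70 replicate 1, 2 or 4, or wt replicate 2, 3, 4 or 5, left the difference at 0.71 and gave limma adjusted p between 0.0549 and 0.0591. The call stood in the other 7 of 24 such fits. When those 4 arrays were left out, a setting chosen after the data were seen, the difference was 0.53 (limma adjusted p = 0.157). On the deposited scale with no further normalisation, also added after the data were seen, it was 0.67 (limma adjusted p = 0.0564). With each array centred on its median in place of quantile normalisation it was 0.43 (limma adjusted p = 0.2). That centring moved the median difference of all tested probe sets to -0.23, and relative to this median Cldn5 stood at 0.66. Centring shifts all probe sets of a comparison alike, so relative values of this kind are the same on the deposited scale by construction. The sign was positive in all 10 other settings and in all 24 fits with 1 array left out.

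**Figure D1:**
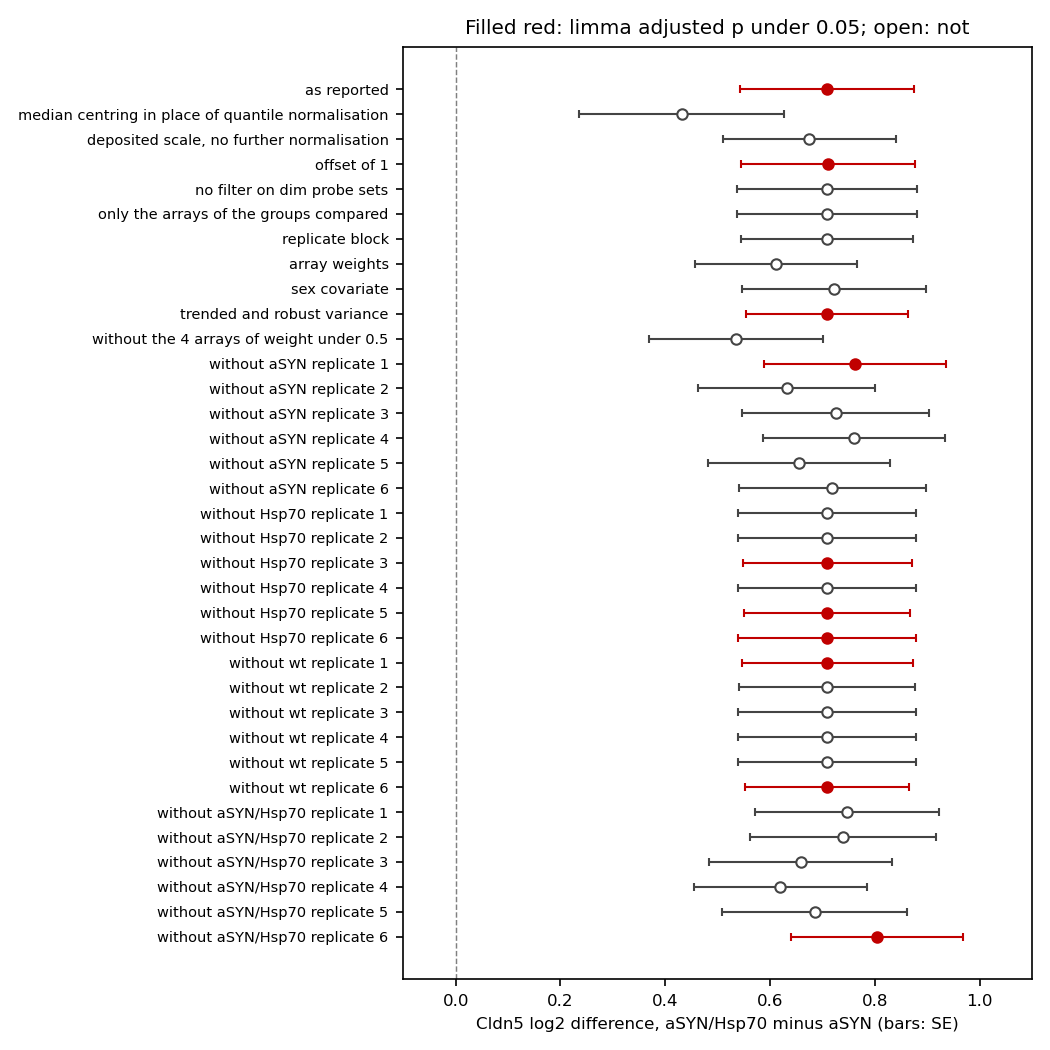
The Cldn5 log2 difference between aSYN/Hsp70 and aSYN (x axis, points, with bars of 1 SE) is drawn for the settings used in the report, 10 other settings and each of the 24 arrays left out. Filled red points passed a limma adjusted p of 0.05 and open points did not; the points lie between 0.43 and 0.80, all right of 0.

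RNA quality was read from 4 control transcripts as their 3′ signal less their 5′ signal, which grows with degradation. It averaged 0.97 ± 0.08 in aSYN and 0.85 ± 0.09 in aSYN/Hsp70 (SD, n = 6, two-sided exact permutation p = 0.0368, adjusted p = 0.221 over 6 pairs of groups). The other groups averaged 0.85 ± 0.13 in wt and 0.92 ± 0.18 in Hsp70 (SD, n = 6). Across the 24 arrays Cldn5 and this signal gave Pearson's r = -0.186 (permutation p = 0.386, adjusted p = 0.631 over 54 relations) and Spearman's rho = -0.183 (permutation p = 0.392, adjusted p = 0.705). The r was -0.218 without the 2 arrays farthest from the Cldn5 median and 0.0166 with group means removed. The part of RNA quality in the Cldn5 difference was not tested.

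Cdh5, at the adherens junction, had its widest spread in wt and aSYN. Its brighter probe set ran from 8.48 to 9.63 in wt (median 9.21) and from 8.19 to 9.55 in aSYN (median 8.77). The range was 9.03 to 9.44 in Hsp70 (median 9.35) and 9.22 to 9.52 in aSYN/Hsp70 (median 9.43). All 6 aSYN/Hsp70 samples lay above the aSYN mean, but inside the aSYN range, because aSYN replicate 4 was the highest of its group. The mean difference of Cdh5 between aSYN/Hsp70 and aSYN was 0.64 (SE 0.21, 95% interval 0.20 to 1.07, limma adjusted p = 0.121) and did not pass. The dim probe set of Cdh5 fell below the filter. Its group mean was 7.54 ± 0.96 for wt and 6.69 ± 1.24 for aSYN, against 7.81 ± 0.91 for Hsp70 and 7.52 ± 1.43 for aSYN/Hsp70 (SD, n = 6). Each difference between these means was smaller than the wider SD of its pair, and the largest was between aSYN and Hsp70.

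Pecam1 showed no difference between aSYN/Hsp70 and aSYN (-0.01, SE 0.28, 95% interval -0.60 to 0.58, limma adjusted p = 0.986), an interval that leaves room for changes of either sign. It ran from 9.98 to 10.61 in wt and from 9.69 to 10.21 in aSYN, then from 9.22 to 10.43 for Hsp70 and from 8.45 to 11.07 for aSYN/Hsp70. The last range was set by replicates 4 (lowest) and 3 (highest), both among the arrays that stood apart. The 3 junction genes thus did not share 1 pattern: Cldn5 and Cdh5 were lowest in aSYN, while the Pecam1 mean was highest in wt and near 10 in the other groups.

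**Figure D2:**
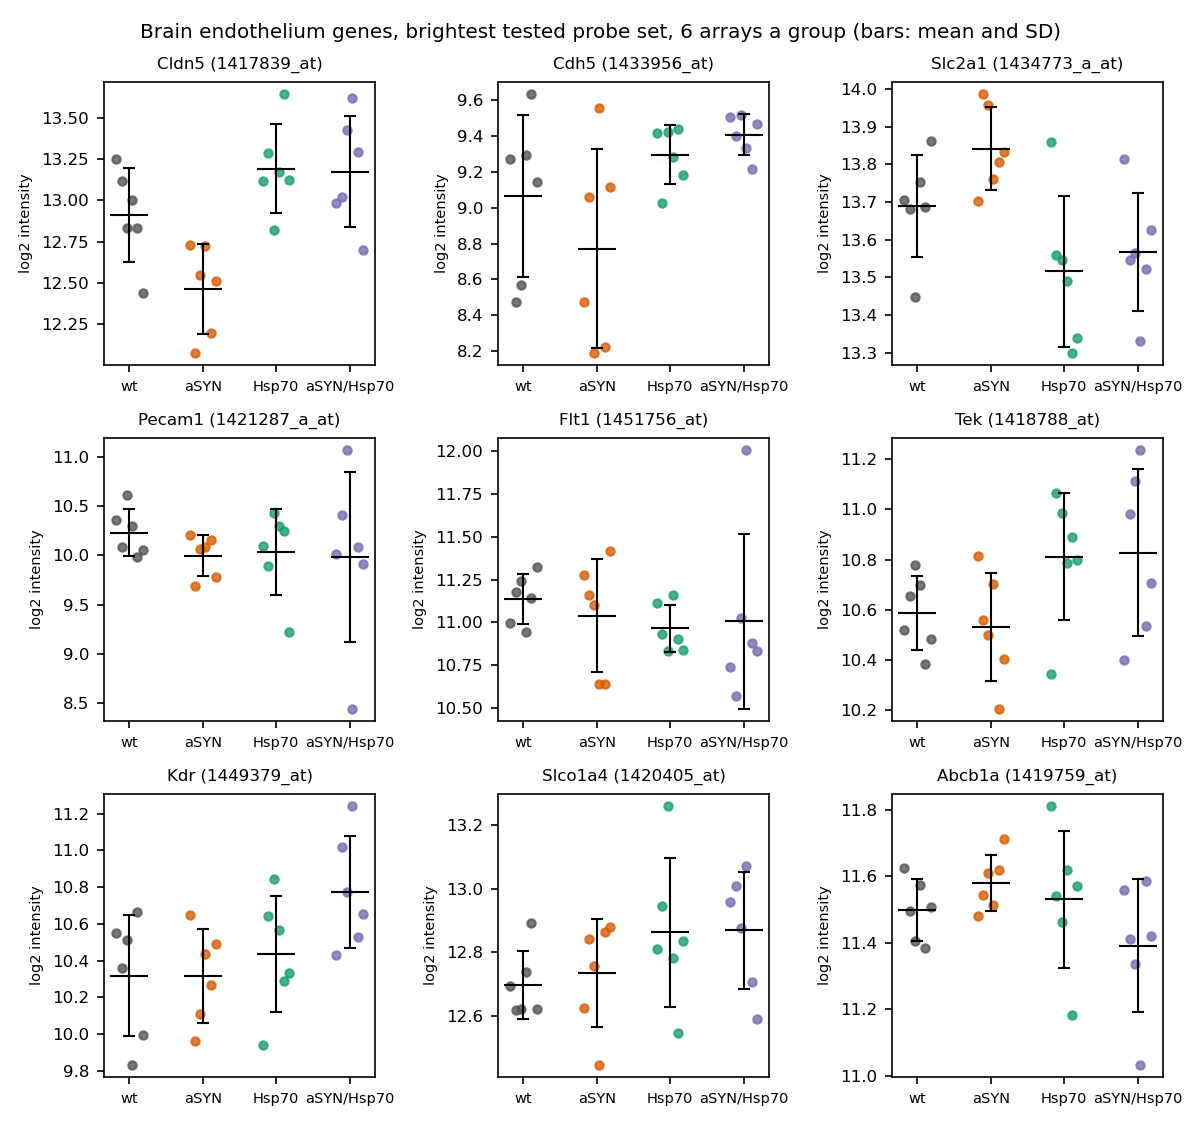
Each panel plots log2 intensity (y axis) of 1 gene's brightest tested probe set in the 4 groups (x axis), with 1 point per array and the mean and SD as black bars (n = 6). Cldn5 in aSYN lies between 12.08 and 12.73, below 5 of the 6 aSYN/Hsp70 points, while the groups of Pecam1 and Flt1 overlap throughout.

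Of the transporters, GLUT1 (Slc2a1) ran the other way from Cldn5 in 2 of its 3 probe sets. The brightest (1434773_a_at) ran from 13.45 to 13.86 in wt (median 13.70), from 13.70 to 13.99 in aSYN (median 13.82), from 13.30 to 13.86 in Hsp70 (median 13.52) and from 13.33 to 13.81 in aSYN/Hsp70 (median 13.55). Of the 6 aSYN/Hsp70 samples, 5 lay below the lowest aSYN sample. The difference of this Slc2a1 probe set between aSYN/Hsp70 and aSYN was -0.27 (SE 0.10, 95% interval -0.47 to -0.08, limma adjusted p = 0.14), and that of probe set 1426599_a_at was -0.31 (SE 0.12, 95% interval -0.56 to -0.05, limma adjusted p = 0.184). Neither passed. The third Slc2a1 probe set (1426600_at) averaged 12.93 ± 0.12 for wt and 12.99 ± 0.14 for aSYN, then 13.01 ± 0.22 for Hsp70 and 13.02 ± 0.19 for aSYN/Hsp70 (SD, n = 6), a difference of 0.03 (SE 0.10, 95% interval -0.18 to 0.25, limma adjusted p = 0.882).

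The 3 Slc2a1 probe sets therefore disagreed. Across the 24 arrays the first 2 correlated with each other (Pearson's r = 0.827, Spearman's rho = 0.78), but with the third they gave r = 0.0776 and 0.235 (rho = 0.181 and 0.409), given as descriptions of probe sets that share the arrays.

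P-glycoprotein (Abcb1a) was lower in aSYN/Hsp70 than in aSYN by its point estimates, and neither probe set passed. The brighter one ran from 11.38 to 11.63 in wt and 11.48 to 11.71 in aSYN, with 11.18 to 11.81 for Hsp70 and 11.03 to 11.59 for aSYN/Hsp70, and differed by -0.19 between aSYN/Hsp70 and aSYN (SE 0.10, 95% interval -0.39 to 0.01, limma adjusted p = 0.281). The dimmer one averaged 9.68 ± 0.40 in wt and 9.78 ± 0.34 in aSYN, against 9.25 ± 0.35 in Hsp70 and 9.26 ± 0.47 in aSYN/Hsp70 (SD, n = 6), with a difference of -0.52 between aSYN/Hsp70 and aSYN (SE 0.22, 95% interval -0.98 to -0.06, limma adjusted p = 0.206). In Hsp70 versus wt it had the smallest p of all members, with a difference of -0.44 (SE 0.22, limma adjusted p = 0.881). The 2 Abcb1a probe sets correlated weakly across arrays (r = 0.412, rho = 0.29). Slco1a4 ran from 12.62 to 12.89 in wt and from 12.45 to 12.88 in aSYN, with 12.55 to 13.26 in Hsp70 and 12.59 to 13.07 in aSYN/Hsp70, and differed by 0.13 between aSYN/Hsp70 and aSYN (SE 0.11, 95% interval -0.09 to 0.36, limma adjusted p = 0.499).

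By its mean, the receptor Kdr was highest in brains with both genotypes. Its level ran from 9.83 to 10.66 in wt (median 10.43), from 9.96 to 10.65 in aSYN (median 10.35), from 9.94 to 10.85 in Hsp70 (median 10.45) and from 10.43 to 11.24 in aSYN/Hsp70 (median 10.71). Of the 6 aSYN/Hsp70 samples, 4 lay above the highest aSYN sample and 3 above the highest wt sample. Kdr differed by 0.46 between aSYN/Hsp70 and aSYN (SE 0.17, 95% interval 0.10 to 0.81, limma adjusted p = 0.168) and by 0.45 between aSYN/Hsp70 and wt (SE 0.17, limma adjusted p = 0.297), and neither passed. The wt and aSYN means of Kdr were both 10.32, so both comparisons rest on the same 6 aSYN/Hsp70 arrays, the highest of which was replicate 4. Without the 4 arrays that stood apart the difference from aSYN was 0.34 (limma adjusted p = 0.427), and with median centring it was 0.23, or 0.46 relative to the median of all probe sets.

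Tek, the angiopoietin receptor, was higher in both groups with Hsp70 by its means, 10.81 ± 0.25 in Hsp70 and 10.83 ± 0.33 in aSYN/Hsp70 against 10.59 ± 0.15 in wt and 10.53 ± 0.22 in aSYN (SD, n = 6). Of the 6 Hsp70 samples, 5 lay above the highest wt sample, while Hsp70 replicate 1, at 10.34, lay below the lowest one. The Tek difference between aSYN/Hsp70 and aSYN was 0.30 (SE 0.14, 95% interval 0.00 to 0.59, limma adjusted p = 0.254), and that between Hsp70 and wt was 0.23 (SE 0.14, limma adjusted p = 0.881). Without the 4 arrays that stood apart the first of these was 0.12 (limma adjusted p = 0.742) and with array weights 0.10 (limma adjusted p = 0.727). With median centring it was 0.05, or 0.28 relative to the median of all probe sets.

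The 4 probe sets of Flt1, the other VEGF receptor, gave differences between aSYN/Hsp70 and aSYN of -0.03, -0.31, 0.07 and -0.32 from the brightest to the dimmest, with limma adjusted p from 0.288 to 0.937. Their 95% intervals together reached from -0.89 to 0.42. On the brightest and the dimmest Flt1 probe sets, aSYN/Hsp70 replicate 4 lay at opposite ends of its group. It read 12.001 on the first (highest of its group) and 7.35 on the last (lowest of its group). Without that array the differences of these probe sets were -0.23 and 0.0463, so their order was reversed and they still disagreed. Between probe sets of Flt1, Pearson's r across the 24 arrays ran from -0.637 to 0.3 and Spearman's rho from -0.0696 to 0.236 (6 pairs, as a description).

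**Figure D3:**
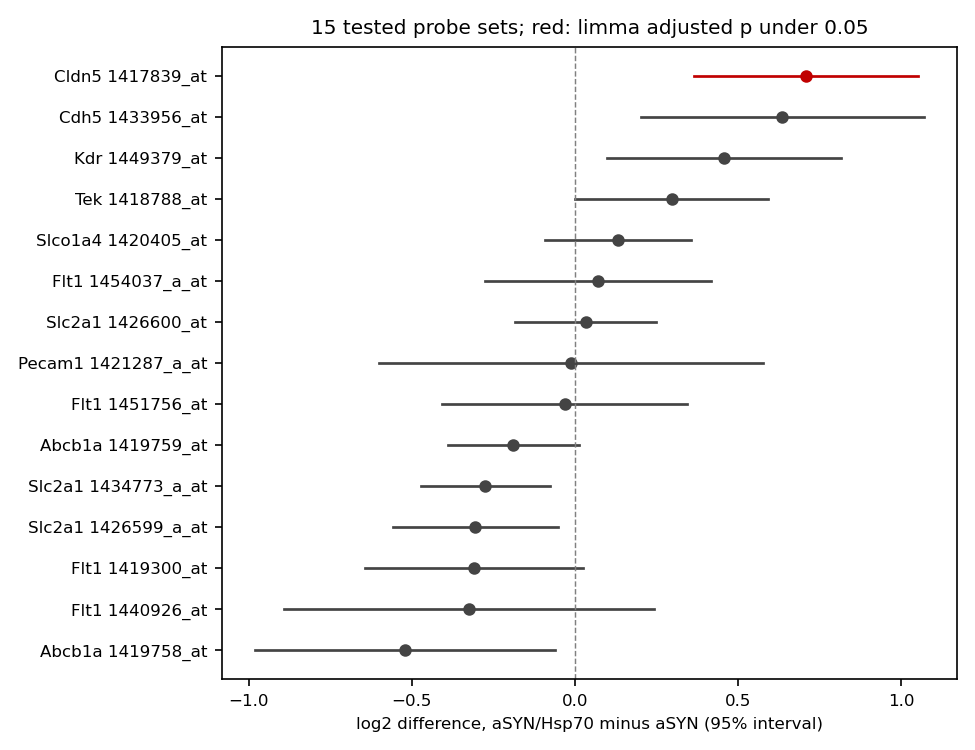
Log2 differences between aSYN/Hsp70 and aSYN (x axis) for the 15 tested member probe sets (y axis) are drawn as points with 95% intervals from limma. Cldn5 (0.71, red) passed the adjusted test; the other 14 probe sets lie between -0.52 and 0.64 and did not.

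Counted over the 15 probe sets, aSYN/Hsp70 exceeded aSYN in 7 and fell short in 8, with a median of -0.01 against -0.03 over all 27022 tested, and the median absolute difference was 0.30 against 0.20. At an unadjusted p under 0.05 there were 7 of 15, 4 higher (Cldn5, Cdh5, Kdr, Tek) and 3 lower (2 of Slc2a1, 1 of Abcb1a). Of all tested probe sets 19.6% met that limit, 8.76% as higher and 10.9% as lower. Members were chosen with earlier results of these data known, so setting these shares side by side does not test the list. The 2 Slc2a1 probe sets correlated (r = 0.827) and do not count as separate results. With median centring in place of quantile normalisation 11 of 15 were lower and 4 higher. On the deposited scale 8 were lower and 7 higher. Relative to the median of all probe sets the split was 8 and 7 on both scales. Centring shifts all probe sets of a comparison alike, so these relative values are the same by construction and are not separate support.

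In the other comparisons limma called 0 of 15 members. For aSYN versus wt, where 0.0037% of all probe sets were called, members differed by -0.45 to 0.17 and 1 of 15 had an unadjusted p under 0.05 (5.17% of all, 3.31% as lower). That one was Cldn5, at -0.45 (SE 0.17, limma adjusted p = 0.732). For Hsp70 versus wt (0% called) they differed by -0.44 to 0.28 with 0 of 15 at an unadjusted p under 0.05 (4.83% of all). Cldn5 stood at 0.28 (SE 0.17, limma adjusted p = 0.881). For aSYN/Hsp70 versus wt (0% called) they differed by -0.42 to 0.45 with 2 of 15 at that limit (14.5% of all, 6.08% as higher and 8.44% as lower), Kdr (higher) and 1 probe set of Flt1 (lower), and Cldn5 stood at 0.26 (SE 0.17, limma adjusted p = 0.439). For aSYN/Hsp70 versus Hsp70 (0% called) they differed by -0.31 to 0.34 with 0 of 15 (9.62% of all). The largest of these by p was Kdr (0.34, SE 0.17, limma adjusted p = 0.542), and Cldn5 stood at -0.02 (SE 0.17). The interaction, the aSYN difference with Hsp70 minus that without it (0% called), ran from -0.37 to 0.43 with 0 of 15 (8.13% of all). Cldn5 had the largest interaction, 0.43 (SE 0.23, limma adjusted p = 0.664), so whether the Cldn5 difference between aSYN and its control depended on Hsp70 was not resolved. These comparisons share groups and are not independent.

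The wider vessel lists, drawn up with earlier results of these data known, were read in the same fit for aSYN/Hsp70 versus aSYN, 1 brightest probe set per gene for directions and all probe sets for calls. Over all 27022 tested probe sets 45.7% were higher in that comparison and 0.718% were called. Among 39 tested genes of other endothelial markers, 14 were higher and 25 lower (median -0.06), and 0 of 53 probe sets were called. The smallest p belonged to Slco1c1, the thyroid hormone carrier of the barrier, at -0.31 (SE 0.10, limma adjusted p = 0.113). Of 12 VEGF and angiopoietin ligands and co-receptors, 1 was higher and 11 lower (median -0.24), and 0 of 22 probe sets were called, with the ligand Pgf at -1.73 (SE 0.46, limma adjusted p = 0.07). Of 14 genes of the Wnt pathway that maintains the barrier, 6 were higher and 8 lower (median -0.07), and 0 of 28 were called. Its smallest p was that of beta-catenin (Ctnnb1), at 0.38 (SE 0.09, limma adjusted p = 0.0505).

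Markers of neighbouring cells were read beside the members because vessels come with them. Of 12 pericyte and smooth muscle genes, 5 had a higher and 7 a lower mean in the double genotype (median -0.02), 0 of 21 probe sets were called, and the pericyte gene Rgs5 stood at 0.36 (SE 0.13, limma adjusted p = 0.157). Of 11 meninges and fibroblast genes, 7 were higher and 4 lower (median 0.24), and 0 of 14 probe sets were called. A probe set of the collagen gene Col1a2 stood at 0.58 (SE 0.21, limma adjusted p = 0.155). A dimmer tested probe set of Col1a2 did not share this rise, with means of 8.95 in aSYN and 8.87 in aSYN/Hsp70. Choroid plexus genes were higher for 1 and lower for 6 of 7 (median -0.16), with Clic6 at -0.40 (SE 0.12, limma adjusted p = 0.0952). Only 2 of 5 red blood cell genes with a probe set passed the filter, and both were higher (median 0.28), with Hbb-b2 at 0.47 (SE 0.55, limma adjusted p = 0.649). Astrocyte genes were higher for 5 and lower for 4 of 9 (median 0.00), with the gap junction gene Gja1 at 0.51 (SE 0.12, limma adjusted p = 0.0502). Microglia genes were higher for 3 and lower for 7 of 10 (median -0.03), with the complement gene C1qb at -0.67 (SE 0.18, limma adjusted p = 0.0655). None of these lists had a called probe set in any of the 6 comparisons. Few probe sets were called at all: 0.718% of the 27022 tested in aSYN/Hsp70 versus aSYN, 0.0037% in aSYN versus wt and 0% in the rest. The absence of calls is therefore near the share over all probe sets.

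As a sum of deposited intensities over the list, the log2 level of the 9 member genes ran from 15.10 to 15.30 in wt, from 15.08 to 15.23 in aSYN, from 15.11 to 15.33 in Hsp70 and from 15.10 to 15.33 in aSYN/Hsp70, so the ranges of all groups overlapped. The summed meninges level ran from 14.79 to 14.95 in aSYN and from 14.85 to 15.14 in aSYN/Hsp70, and the summed pericyte level from 15.33 to 15.59 and from 15.26 to 15.58. The summed choroid plexus level (8 genes) ran from 17.21 to 17.50 in aSYN (median 17.30) and from 17.35 to 17.64 in aSYN/Hsp70 (median 17.47). That sum had the higher median in aSYN/Hsp70, with overlapping ranges and no test. Most of the 7 tested genes of the list had a lower mean there, but after quantile normalisation. The sum on the deposited scale and these means are unlike measures. The part of these cell types in the Cldn5 difference was not tested.

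Across the 24 arrays the brightest probe sets of the 9 genes did not vary as 1 unit. Each gene is represented by 1 probe set. As given above, probe sets of Slc2a1, Abcb1a and Flt1 agreed within their gene only in part or not at all. The relations below therefore need not hold for other probe sets of these genes. Of the 36 pairs of genes, 17 had a positive and 19 a negative Pearson's r (median -0.0406), and 8 passed a permutation test adjusted over 54 relations, 3 positive and 5 negative. The permutations moved arrays freely across the 4 groups, so differences between group means enter these p-values. Cldn5 and Slc2a1 had the lowest value, r = -0.737 (permutation p = 6e-05, adjusted p = 0.00324) and rho = -0.716 (permutation p = 0.00013, adjusted p = 0.00378). It was -0.685 without the 2 arrays farthest from the Cldn5 median, -0.725 in the 20 arrays that did not stand apart and -0.4998 after group means were removed. On the deposited scale, with no further normalisation, it was -0.719. With each array centred on its median instead, however, it was -0.0803, so it depended on how the arrays were scaled. The other 4 passing negative pairs joined Slc2a1 or Abcb1a to Tek or Kdr. They were Slc2a1 with Tek (r = -0.701) and Kdr (r = -0.589), and Abcb1a with Tek (r = -0.674) and Kdr (r = -0.5745). The same pairs stood at -0.736, -0.635, -0.668 and -0.562 on the deposited scale, and 0.0635, -0.164, 0.124 and -0.107 with median centring. In the 20 arrays that did not stand apart they gave -0.6465, -0.5496, -0.5302 and -0.3333. With group means removed they gave -0.5976, -0.5963, -0.6836 and -0.4789.

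The 3 passing positive pairs kept their sign under each of these scalings. In the 20 arrays that did not stand apart, r was 0.4767 for Cldn5 with Tek, 0.4316 for Tek with Kdr and 0.6099 for Slc2a1 with Abcb1a. With group means removed these r were 0.4218, 0.5607 and 0.6715. Cldn5 and Tek gave r = 0.586 (permutation p = 0.00276, adjusted p = 0.0164) and rho = 0.522 (permutation p = 0.00974, adjusted p = 0.0584), with 0.523 without the 2 farthest arrays and 0.579 on the deposited scale and 0.55 with median centring. Tek and Kdr gave r = 0.623 (permutation p = 0.00117, adjusted p = 0.0105) and rho = 0.586 (permutation p = 0.00317, adjusted p = 0.0342), with 0.525 without the 2 farthest arrays and 0.599 on the deposited scale and 0.393 with median centring. Slc2a1 and Abcb1a gave r = 0.619 (permutation p = 0.00108, adjusted p = 0.0105) and rho = 0.527 (permutation p = 0.00889, adjusted p = 0.0584), with 0.401 without the 2 farthest arrays and 0.655 on the deposited scale and 0.904 with median centring. Of the 36 pairs, 17 were positive on the deposited scale (median -0.0167) and 25 with median centring (median 0.131).

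**Figure D4:**
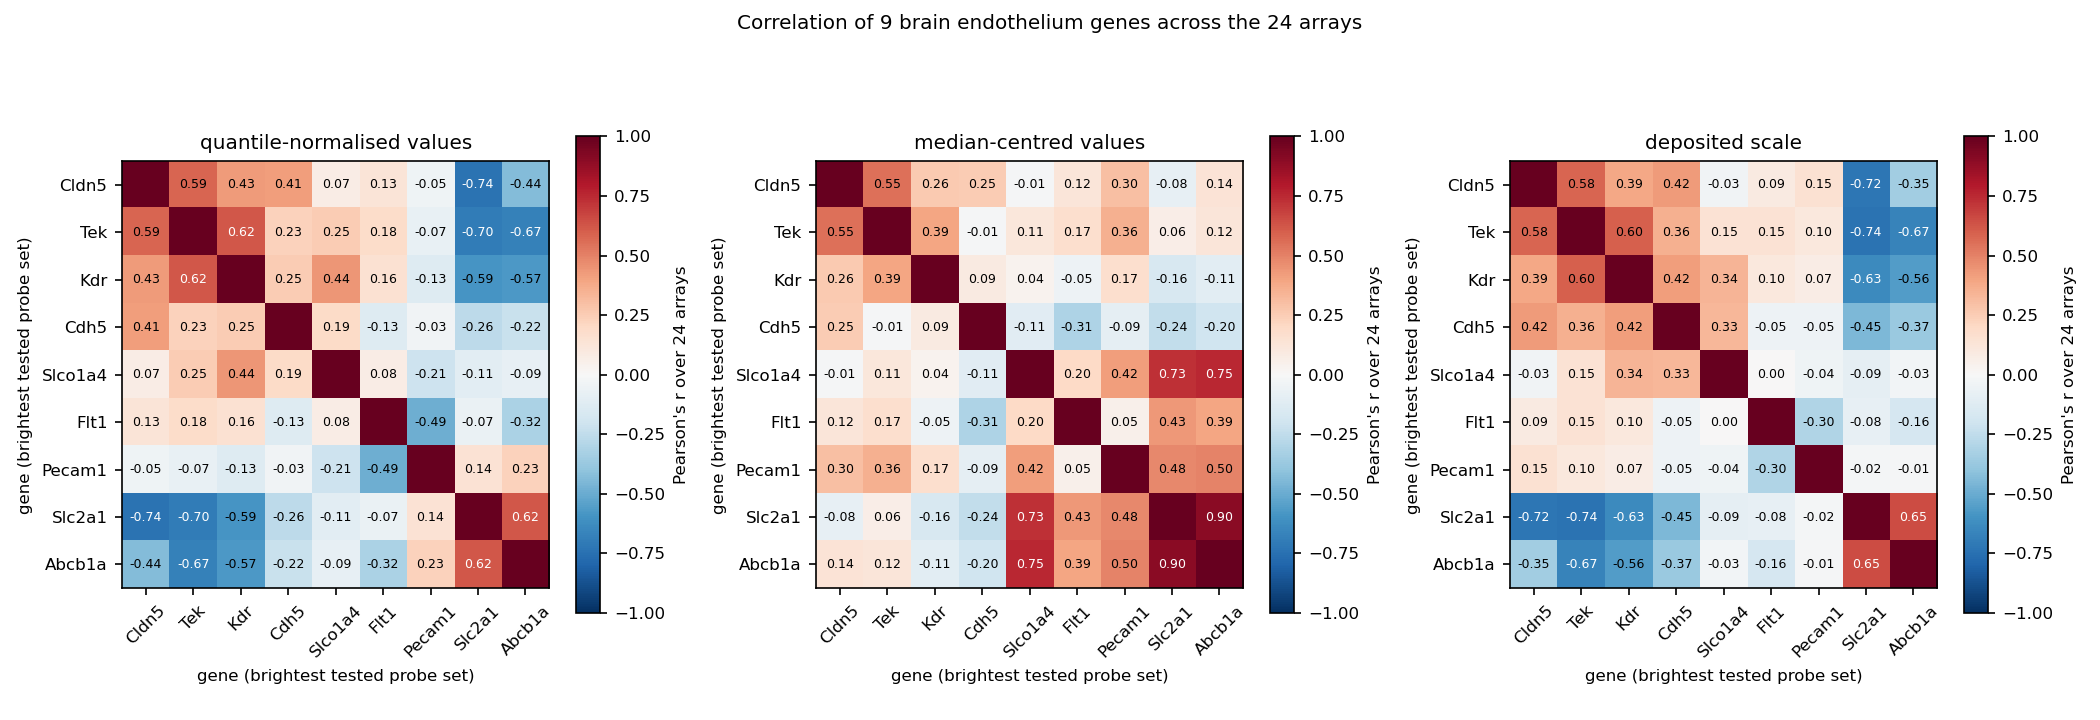
Each cell gives Pearson's r over the 24 arrays for a pair of the 9 genes (both axes), with quantile-normalised values on the left, median-centred values in the middle and the deposited scale on the right. The blue cells that join Slc2a1 and Abcb1a to Cldn5, Tek and Kdr on the left (as low as -0.737) and on the right lie between -0.164 and 0.138 in the middle, while Cldn5 with Tek stays positive (0.586, 0.55 and 0.579).

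Several members also varied with the array itself. Against the log2 median of the deposited intensities, Slco1a4 gave r = 0.657 (permutation p = 0.00052, adjusted p = 0.00702) and rho = 0.583 (permutation p = 0.00317, adjusted p = 0.0342), and r was 0.559 without the 2 farthest arrays and 0.413 in the 20 arrays that did not stand apart. For Kdr the r was 0.599 (permutation p = 0.00183, adjusted p = 0.0141) with rho = 0.388 (permutation p = 0.0621, adjusted p = 0.279), and it fell to 0.395 without the 2 farthest arrays and 0.249 in the 20 arrays. For Tek it was 0.523 (permutation p = 0.00748, adjusted p = 0.0342) with rho = 0.318 (permutation p = 0.131, adjusted p = 0.388), then 0.442 without the 2 farthest arrays and -0.0845 in the 20 arrays, so for Tek the relation rests on the 4 arrays that stood apart. Abcb1a and Slc2a1 ran the opposite way. For Abcb1a the r was -0.569 (permutation p = 0.00761, adjusted p = 0.0342) with rho = -0.204 (permutation p = 0.337, adjusted p = 0.665), then -0.181 without the 2 farthest arrays and -0.132 in the 20 arrays. For Slc2a1 the r was -0.514 (permutation p = 0.00824, adjusted p = 0.0342) with rho = -0.426 (permutation p = 0.0395, adjusted p = 0.213), then -0.365 without the 2 farthest arrays and -0.247 in the 20 arrays. Over all arrays, the genes on the 2 sides of the negative pairs with Tek and Kdr ran with the array median in opposite directions. In the 20 arrays Tek had the same sign as Abcb1a and Slc2a1. The part of the array median in these pairs was not tested. Cldn5 gave r = 0.379 (permutation p = 0.0688, adjusted p = 0.177) and rho = 0.314 (permutation p = 0.136, adjusted p = 0.388), with 0.405 without the 2 farthest arrays and 0.1 in the 20 arrays. The part of array quality in the group differences of these genes was not tested beyond the fits without those arrays.

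Among 12920 other named genes, the 5 whose brightest probe set most resembled Cldn5 over the 24 arrays were Mras (r = 0.789), Hnrnpc (0.787), Zfc3h1 (0.776), Emc8 (0.765) and Esam (0.753), the last an adhesion molecule of endothelial tight junctions. With group means removed these r were 0.684, 0.596, 0.681, 0.649 and 0.72. The 5 most like the mean of the standardised members were Ncoa7 (0.751), Senp7 (0.728), Gm5126 (0.724), Pja2 (0.72) and Nubp2 (0.715). These are the highest of many correlations over the same arrays, given as descriptions with no p.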

How the data were processed

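The authors deposited linear probe set intensities, 1 value per array. Which program summarised the probes is not recorded there. All arrays share a trimmed mean of 2500, while their medians differ. Intensities were transformed as log2(intensity + 16), which understates changes of dim probe sets, and quantile normalised. The 64 control probe sets and the 18015 dimmest (40%) were left out, and 27022 were tested together, every array entering with its group as the only term (limma 3.58.1, R 4.3.3, lmFit and eBayes), with Benjamini-Hochberg adjustment over all of them, called at 0.05. Intervals are 95% intervals from limma. Gene names came from a platform table, in which 34958 probe sets have 1 symbol, 932 several and 9211 none. The members and all gene lists were chosen with earlier results of these data known. All member probe sets are described, and of each other list the called genes or else that of smallest p is named. Correlations used 100000 permutations, and group values exact permutation (scipy 1.17.1, Python 3.11.15; figures with matplotlib 3.10.9). In simulated data for aSYN/Hsp70 versus aSYN the fit recovered 27% of probe sets changed by 0.5 and 63% of those changed by 1. A true change of that size would thus often not be called. Alternatives were median centring of each array in place of quantile normalisation, an offset of 1, no dim filter, a fit on the compared arrays alone, a replicate block, array weights, a sex covariate, a trended and robust variance, each array left out and, added after seeing the data, the deposited scale with no further normalisation and the 4 arrays of low weight left out. The number of arrays limits the precision.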

Additional observations from a re-analysis of the deposited data

Results flagged for a closer look

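Of 64 groups of 6 values (16 probe sets in 4 groups), 5 held a sample far from the others of its group by Dixon's 95% limit, where chance gives 3.2 (about 1 in 20). Both flags in aSYN/Hsp70 replicate 4 were for Flt1: its brightest probe set (1451756_at) read 12.001 where the nearest sample read 11.02, and its dimmest (1440926_at) read 7.35 where the nearest read 9.38. The dim Cdh5 probe set (1422047_at) read 6.08 in Hsp70 replicate 2, against 7.88 in the nearest sample, and 5.67 in wt replicate 6, against 7.32. The Slc2a1 probe set 1426600_at read 12.72 in aSYN replicate 6, against 12.96 in the nearest sample. None of these was in Cldn5.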

How the results depend on the processing

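The count of called members in aSYN/Hsp70 versus aSYN fell from 1 to 0 with each array centred on its median in place of quantile normalisation, on the deposited scale with no further normalisation (added after the data were seen), without the dim filter, with only the arrays compared, with the replicate block, with array weights, with the sex covariate and in the fit, chosen once the data were seen, that drops the 4 arrays of low weight, and it lay between 0 and 1 with each array left out. It stayed at 1 with an offset of 1 and with a trended and robust variance. Cldn5 differed by 0.71 with the replicate block (limma adjusted p = 0.0668), 0.61 with array weights (0.0537) and 0.72 with the sex covariate (0.0746), and its adjusted p ranged from 0.0209 to 0.2 over 10 settings. In the other 5 comparisons 0 members were called in every fit run. Over all probe sets the 194 calls became 3 with median centring, 182 on the deposited scale, 43 without the dim filter, 7 with only the arrays compared, 70 with the replicate block, 324 with array weights, 89 with the sex covariate, 369 with a trended and robust variance, 100 without the 4 arrays, and 49 to 814 with 1 array left out. For aSYN versus wt, 1 call became 217 with array weights, 9 on the deposited scale, 35 without the 4 arrays, 3 with a trended and robust variance, 2 with the block and 0 in several settings. For the interaction, 0 became 81 with array weights, 24 with the trended variance, 5 on the deposited scale and 5 without the 4 arrays.

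Signs turned for the following differences, none of them called. With median centring these were Cldn5 in aSYN/Hsp70 versus wt (-0.0512) and, in aSYN/Hsp70 versus aSYN, Slc2a1 1426600_at (-0.257), Flt1 1454037_a_at (-0.0491) and Slco1a4 (-0.15). That centring moved the median of all probe sets to -0.27 and -0.23 in these comparisons, and relative to it Cldn5 (0.22), Flt1 1454037_a_at (0.18) and Slco1a4 (0.08) kept their sign, while Slc2a1 1426600_at stood at -0.03. On the deposited scale Slc2a1 1426600_at gave -0.0133 and Pecam1 0.152. With array weights Slc2a1 1426600_at gave -0.038, Pecam1 0.132 and Flt1 1440926_at 0.0469. With the sex covariate Pecam1 gave 0.0357 and Flt1 1451756_at 0.0125. Without the 4 arrays Slc2a1 1426600_at gave -0.049, Pecam1 0.104 and Flt1 1440926_at 0.0886. With 1 array left out, the ranges were -0.107 to 0.0771 for Cldn5 in aSYN/Hsp70 versus Hsp70 and, in aSYN/Hsp70 versus aSYN, -0.468 to 0.0463 for Flt1 1440926_at, -0.23 to 0.0556 for Flt1 1451756_at, -0.0363 to 0.205 for Flt1 1454037_a_at, -0.227 to 0.296 for Pecam1 and -0.0233 to 0.0764 for Slc2a1 1426600_at. For the settings other than median centring the cause was not tested. The labels do not say that a replicate number marks a shared litter or day. Deviations of samples with the same number correlated by 0.0176 on average (-0.148 to 0.193), not over 0.1 in every pair, so the numbers were not taken to pair the samples. For 8 of 24 arrays the best match in another group had the same number, where chance gives 4, and with the replicate block the Cldn5 call was lost.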

Other observations

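Genes of the other lists that had the smallest p in further comparisons, none of which passed, were in aSYN versus wt the microglial complement gene C1qb (0.66, SE 0.18, limma adjusted p = 0.293), the astrocyte glutamate transporter Slc1a3 (-0.26, SE 0.08, adjusted p = 0.452), beta-catenin (Ctnnb1, -0.30, SE 0.09, adjusted p = 0.457) and the endothelial transcription factor Sox17 (-0.36, SE 0.13, adjusted p = 0.67). In aSYN/Hsp70 versus wt, Slco1c1 stood at -0.47 (SE 0.10, limma adjusted p = 0.154) and the pericyte channel subunit Abcc9 at -0.98 (SE 0.42, adjusted p = 0.316). Angpt2, a ligand of Tek, stood at -1.30 in Hsp70 versus wt (SE 0.42, limma adjusted p = 0.881) and at 1.21 in aSYN/Hsp70 versus Hsp70 (SE 0.42, adjusted p = 0.376), which share the Hsp70 arrays. In aSYN/Hsp70 versus Hsp70 and in the interaction, the sialomucin gene Emcn of endothelial cells stood at -0.33 (SE 0.10, limma adjusted p = 0.328) and -0.46 (SE 0.14, adjusted p = 0.375). The interaction of Slc1a3 was 0.41 (SE 0.11, limma adjusted p = 0.249).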
